A study of Mus musculus with 6 samples.

Results

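Plasminogen activation was examined through 5 genes of the 55536 in the count tables, listed by symbol: Plau and Plat, which encode the activators, Plaur, which encodes the cell surface receptor of urokinase, and Serpine2 and Serpinb2, which encode inhibitors of the activators. The genes were chosen by symbol, by a list drawn up when their fold changes between cKO and control samples were known, so the differences of these 5 genes between the groups are given as a description, with no p-value. All 5 were found in GENCODE M21 and all 5 passed the filter on low counts that kept 22404 genes for testing.

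Plasminogen is a circulating zymogen that tissue-type (Plat) or urokinase-type (Plau) activator cuts into plasmin, a broad serine protease that dissolves fibrin, degrades matrix and releases or activates growth factors. Urokinase works at the cell surface when it is held by its receptor, which also signals with integrins, and serpins stop both activators by forming covalent complexes that are taken up by receptors of the LDL receptor family. In injured skeletal muscle the system is known for clearing fibrin, for the entry of inflammatory cells and for the migration of myogenic cells.

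RNA-seq was performed on 6 samples of satellite cells (SCs), the stem cells of skeletal muscle, from adult male mice of the C57BL/6J strain. The 3 control samples were Pax7CreErt2;Hira fl/+, described in the sample labels as WT, and the 3 cKO samples were Pax7CreErt2;Hira fl/fl, so that control cells also carry the Cre and 1 floxed allele of Hira, the gene of a histone H3.3 chaperone. Both groups received a tamoxifen diet, which activates a Cre that is expressed from Pax7 and so recombines in satellite cells and their progeny. The cells were isolated 5 days post-injury, sorted as CD34+ ITGA7+ CD45- TER119- SCA1- and kept for 48 h in high serum medium, so the values describe cells in culture and not muscle. The study's methods name barium chloride injection as the injury, and basic FGF, a growth factor, as an addition to satellite cell medium. Whether each sample came from a separate mouse is not stated, and the spread between samples may then be partly technical.

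Sequencing gave 47944477 to 63323577 counts per sample. The common dispersion that edgeR fitted to the 22404 tested genes corresponds to a coefficient of variation between replicates of 3.92%, counting noise not included. Levels are given as CPM, the counts divided by the TMM-corrected library total and multiplied by a constant, which can be compared between samples for 1 gene. Hira itself was at 5.94 ± 0.645 CPM in control samples and fell to 4.36 ± 0.882 CPM with the deletion (SD, n = 3 each). The difference was a log2 fold change of -0.43 (SE 0.12, adjusted p = 0.0237, edgeR quasi-likelihood test). Transcripts of Hira were therefore still counted in every cKO sample, and without control replicate 1 the edgeR adjusted p was 0.104. These counts are of the whole gene. By other measures, the study reports a sharp decrease of Hira by RT-qPCR and no HIRA protein detected in cKO satellite cells.

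The satellite cell and myogenic markers were abundant in both groups, with a summed level of 7159 to 7293 CPM in control and 6218 to 6739 CPM in cKO samples. Of these 9 markers, 7 were lower in cKO samples (edgeR adjusted p under 0.05), as were 6.46% of all tested genes. Among the 7, 2 were lower less firmly. The call of Itga7 was lost with total counts and without any 1 sample other than cKO replicate 1. That of Des was lost without any 1 control sample. Pax7 fell from 39.7 ± 0.769 to 34.8 ± 1.82 CPM (log2 fold change -0.19, edgeR adjusted p = 0.00656) and Myod1 from 779 ± 13.8 to 699 ± 18.9 CPM (log2 fold change -0.16, edgeR adjusted p = 0.00225).

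Promoter sequence was taken from RefSeq for the build GRCm38.p6, whose table held 3 of the 5 genes. These are the 3 whose groups did not overlap in CPM, and the bases before their start sites are shown because the 3 promoters differ in their letters. Each is printed 5′ to 3′ on the strand of its gene. Capitals mark motifs, which were searched on both strands. The first is the AP-1 element TGACTCA, bound by Fos and Jun dimers. Another is the TATA box, searched as TATAAA, which places the start of transcription. The last is the GC box bound by Sp factors, searched as GGGCGG. Positions are counted from the RefSeq start site.
Plaur, chr7:24462233-24462482, plus strand: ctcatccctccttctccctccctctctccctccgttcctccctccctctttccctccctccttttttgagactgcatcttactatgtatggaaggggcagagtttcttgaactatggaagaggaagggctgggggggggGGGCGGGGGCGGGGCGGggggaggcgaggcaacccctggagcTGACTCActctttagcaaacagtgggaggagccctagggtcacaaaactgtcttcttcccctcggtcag
Serpine2, chr1:79858697-79858915, minus strand: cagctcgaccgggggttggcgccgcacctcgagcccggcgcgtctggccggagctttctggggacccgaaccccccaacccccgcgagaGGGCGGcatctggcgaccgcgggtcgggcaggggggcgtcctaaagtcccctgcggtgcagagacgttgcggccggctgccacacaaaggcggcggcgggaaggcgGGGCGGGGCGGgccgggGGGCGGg
Serpinb2, chr1:107511173-107511422, plus strand: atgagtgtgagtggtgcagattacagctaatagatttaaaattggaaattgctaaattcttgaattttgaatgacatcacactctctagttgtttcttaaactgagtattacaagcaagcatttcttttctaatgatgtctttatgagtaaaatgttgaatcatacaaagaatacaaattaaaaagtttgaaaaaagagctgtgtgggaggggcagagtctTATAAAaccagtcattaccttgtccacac

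The promoter of Plaur held 1 AP-1 element at -69 and 3 GC boxes at -111, -105 and -100, the latter pair sharing a base. An AP-1 element was found in 5.2% of the 32851 windows of 300 bases in the table, and a GC box in 35.7%. The bases shown for Serpine2 are 77.6% G or C. They hold the GC boxes at -161, -55, -50 and -38, which are among the 6 of its whole window. This start site lies inside the longer GENCODE gene, so the stretch is intronic for transcripts that begin upstream. The promoter of Serpinb2 is 32.4% G or C and held a TATA box at -29, a motif found in 13.6% of windows, and no GC box. A second RefSeq start site of Serpinb2 lies downstream, and its window holds the same TATA box. The E-box CAGCTG, the form preferred by myogenic bHLH factors and present in 16.3% of windows, was in none of these windows. These matches describe letters only.

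Plau (ENSMUSG00000021822) encodes urokinase and lies on chromosome 14 of mm10 from 20836660 to 20843385. Its level was 155, 163 and 159 CPM in control replicates 1, 2 and 3 and 165, 166 and 159 CPM in cKO replicates 1, 2 and 3. The groups overlapped, since cKO replicate 3 lay within the control range. The means were 159 ± 4.33 CPM in control against 163 ± 3.67 CPM in cKO samples (SD, n = 3 each). The log2 fold change was 0.04 (SE 0.03).

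Plat (ENSMUSG00000031538), the tissue-type activator, lies on chromosome 8 from 22757727 to 22782844. Its level was 10.1, 11 and 11 CPM in control and 10.8, 11.9 and 10.7 CPM in cKO samples. Here too the groups overlapped, with cKO replicate 2 highest and control replicate 1 lowest. The means were 10.7 ± 0.538 and 11.1 ± 0.665 CPM (SD, n = 3 each), and the log2 fold change was 0.06 (SE 0.06). For both activator genes, then, the groups overlapped and the estimate was within 2 standard errors of 0.

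Plaur (ENSMUSG00000046223), the glycolipid-anchored urokinase receptor, lies on chromosome 7 from 24462484 to 24475968. Its level was 41.4, 40.9 and 39.4 CPM in control and 60.5, 61.0 and 61.3 CPM in cKO samples. Every cKO sample lay above every control sample, and the replicates of each group were close together. The mean was 1.5-fold higher in cKO samples, 60.9 ± 0.392 against 40.6 ± 1.01 CPM (SD, n = 3 each), with a log2 fold change of 0.59 (SE 0.04). It was between 0.57 and 0.60 when each sample was left out in turn.

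Serpinb2 (ENSMUSG00000062345), also called plasminogen activator inhibitor 2 and mostly retained inside the cell, lies on chromosome 1 from 107511423 to 107535478. Its level was 9.61, 10.6 and 10.3 CPM in control and 16.3, 19.5 and 16.1 CPM in cKO samples. The groups did not overlap, and cKO replicate 2 lay above the other two cKO samples. The mean was 1.7-fold higher in cKO samples, 17.3 ± 1.87 against 10.2 ± 0.508 CPM (SD, n = 3 each), with a log2 fold change of 0.77 (SE 0.07). Without cKO replicate 2 it was 0.67. Of the exon bases of Serpinb2, 12.4% are shared with Serpinb10, a polymorphic pseudogene on the same strand that had 1 to 5 counts per sample. The other 4 genes share no exon bases with another gene.

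Serpine2 (ENSMUSG00000026249), protease nexin 1, a secreted inhibitor of thrombin as well as of both activators, lies on chromosome 1 from 79794197 to 79861180. Its level was 37.9, 35.7 and 38.0 CPM in control and 39.5, 45.4 and 42.3 CPM in cKO samples. The groups did not overlap, and cKO replicate 1 lay closest to the control samples. The mean was 1.14-fold higher in cKO samples, 42.4 ± 2.94 against 37.2 ± 1.29 CPM (SD, n = 3 each), with a log2 fold change of 0.19 (SE 0.05). It was 0.13 without cKO replicate 2 and 0.24 without cKO replicate 1.

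Of the 5 genes, 3 were past the threshold of an edgeR adjusted p under 0.05, all of them higher in cKO samples, while 15.8% of all tested genes were past it in either direction, 9.38% being higher and 6.46% lower. Without control replicate 2 or without cKO replicate 2 the count was 2, Serpine2 being the gene lost. Groups that did not overlap were found for the same 3 genes and for 31.8% of all tested genes, 16.8% of all being higher in cKO samples. The genes were chosen with this contrast known, so nothing is read from these counts.

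**Figure D1:**
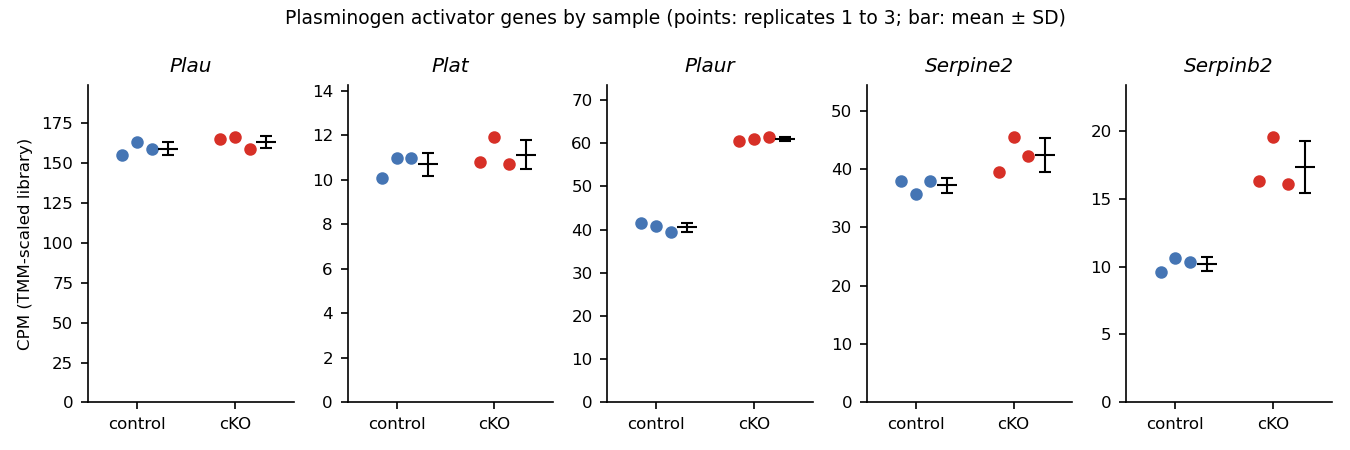
Level of each gene in CPM of the TMM-scaled library (vertical axis, from 0) in the 3 control samples (blue) and the 3 cKO samples (red), with the mean ± SD beside them in black. Plau and Plat overlap between the groups, and Plaur, Serpine2 and Serpinb2 do not.

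Levels of different genes were compared per exon length as TPM, in which the length-scaled counts of each sample sum to the same total, and within samples only. In the control samples Plau was highest at a mean of 142 TPM (range 140 to 144), followed by Plaur at 32.8 TPM (31.3 to 34.4). Serpine2 at 9.49 ± 0.484 TPM and Serpinb2 at 9.15 ± 0.253 TPM (SD, n = 3 each) were neighbours. Serpine2 lay above Serpinb2 in control replicates 1 and 3 and below it in control replicate 2. Plat was lowest at 3.61 TPM (3.51 to 3.68). In cKO samples Plau, Plaur and Plat kept these places and Serpinb2 lay above Serpine2 in all 3 samples, 16.7 ± 2.26 against 11.6 ± 1.08 TPM. The place of the inhibitors depended on the length used: with the longest transcript in place of the union of exons, Serpine2 lay above Serpinb2 in all 6 samples. TPM levels were not used as the measure of the difference between the groups, because genes under 400 bp held 21.5% to 25.2% of the TPM in control and 18.6% to 20.6% in cKO samples, which shifts the TPM of all other genes.

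Ratios of these levels within a sample do not carry that shift. Plaur was 22.4% to 24.2% of Plau in control and 33.2% to 34.9% in cKO samples. Serpinb2 was 6.27% to 6.55% of Plau in control and 9.97% to 11.8% in cKO samples. The ratio of Plau to Plat overlapped between the groups, from 38.4 to 40.5 in control and from 36.7 to 40.2 in cKO samples. Plau thus made up 97.3% to 97.6% of the summed TPM of the activator genes in every sample. The sizes of these ratios and of this share depend on the length used. With the longest transcript, control means were 126 TPM for Plau, 37.4 TPM for Plaur and 4.89 TPM for Plat.

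**Figure D2:**
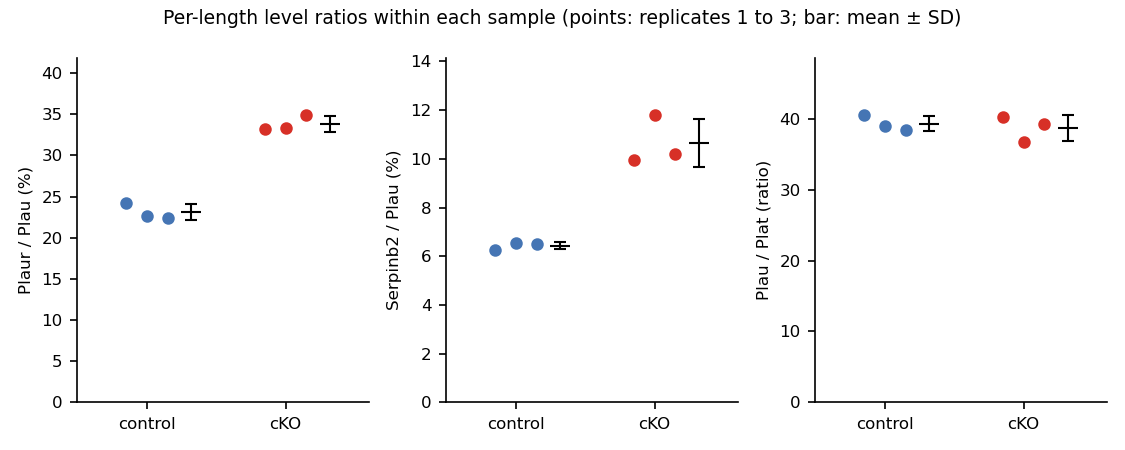
Ratios of per-length levels (vertical axes, from 0; percent or plain ratio as labelled) within each of the 3 control (blue) and 3 cKO (red) samples, with the mean ± SD in black. The ratios of Plaur and Serpinb2 to Plau are higher in every cKO sample than in every control sample, and the ratio of Plau to Plat overlaps.

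The other genes of the system examined were 70 genes in 6 lists by role, of which 53 were tested. In cKO samples 24 of them were higher and 1 was lower (edgeR quasi-likelihood test, adjusted p under 0.05), with a median log2 fold change of 0.20 against -0.00 over all tested genes. Of all tested genes, 9.38% were higher and 6.46% lower. The lists were chosen with earlier results of these data known, so these counts are given as a description. With DESeq2, 19 of the pathway genes were higher and 1 lower. Among the 24, the calls of Lamc1, Vegfa, F2 and Mrc2 were lost under 7, 4, 4 and 2 alternatives.

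Of the 6 further inhibitors examined, 3 were tested and none passed. They were Serpinf2, the inhibitor of plasmin, Serpini1, neuroserpin, and Serping1, with log2 fold changes of -0.59 (SE 0.26, edgeR adjusted p = 0.156), -0.33 (SE 0.16, edgeR adjusted p = 0.218) and 0.20 (SE 0.13, edgeR adjusted p = 0.377), named after their values were seen.

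Plg, plasminogen itself, was barely counted, with 0.647 ± 0.0796 CPM in control against 0.661 ± 0.124 CPM in cKO samples (SD, n = 3 each) and a log2 fold change of 0.04 (SE 0.21, edgeR adjusted p = 0.941). Of the 5 genes in its list, which also holds the plasminogen receptors Plgrkt, Anxa2, S100a10 and Eno1, all were tested and none passed the test.

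Of 19 partners of the urokinase receptor and clearance receptors, 16 were tested, 8 were higher and 1 was lower. Lrp1, the endocytic receptor that takes up complexes of urokinase and its inhibitor, rose from 450 ± 21.8 to 561 ± 35.7 CPM (log2 fold change 0.32, edgeR adjusted p = 0.000125). Itgb2 and Itgam, the chains of the leukocyte integrin Mac-1, showed the largest changes of this list, with log2 fold changes of 1.15 (SE 0.09) and 1.06 (SE 0.14). Their levels were low, at 3.24 and 1.02 CPM in control samples. Itga5, the alpha chain of the fibronectin receptor, Egfr, which signals with the urokinase receptor, and Itgb3, a chain of the vitronectin receptor, had log2 fold changes of 0.55, 0.47 and 0.35. The only lower gene was Vldlr, a further clearance receptor, at -0.17 (edgeR adjusted p = 0.0185), and this call was lost without control replicate 1, control replicate 2 or cKO replicate 3.

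Among 16 substrates and growth factors cut by the system, 12 were tested and 8 were higher. The gelatinase gene Mmp9 and the collagenase gene Mmp13 had log2 fold changes of 1.46 (SE 0.33) and 1.19 (SE 0.21) from levels of 0.204 and 0.46 CPM in control samples. Bdnf, a neurotrophin made as a precursor that plasmin can cut, rose from 8.04 ± 0.656 to 17.2 ± 0.753 CPM (SD, n = 3 each). Its log2 fold change was 1.10 (edgeR adjusted p = 1.68e-08). Fn1, fibronectin of the matrix, rose from 528 ± 11.7 to 618 ± 62.2 CPM (log2 fold change 0.23, edgeR adjusted p = 0.00714), a call lost with DESeq2. Pdgfd, a growth factor released by urokinase, had a log2 fold change of 0.94 (edgeR adjusted p = 6.05e-05). Hgf, whose activation is known in satellite cells, had one of 0.30 (edgeR adjusted p = 0.0301), a call lost with DESeq2 and without control replicate 1, control replicate 2, cKO replicate 2 or cKO replicate 3. The fibrinogen genes Fga, Fgb and Fgg had no counts in any sample.

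The pathway of thrombin, a protease that Serpine2 also inhibits, held 15 genes, of which 11 were tested and 8 were higher. Thbd, thrombomodulin, rose from 14.2 ± 0.51 to 32.1 ± 3.07 CPM (log2 fold change 1.18, edgeR adjusted p = 5.24e-09) and F3, tissue factor, from 15.3 ± 0.798 to 34.2 ± 1.94 CPM (1.17, edgeR adjusted p = 1.38e-09). Tfpi, the inhibitor of tissue factor, and Procr, the protein C receptor, both had log2 fold changes of 0.77. F2rl1, a protease-activated receptor, had one of 0.67. F7, factor VII, had 5 to 7 counts in control and 11 to 14 in cKO samples. Its log2 fold change was 1.15 (edgeR adjusted p = 0.0467), and the call was lost under at least 8 of the alternatives, among them leaving out any 1 sample. Of 9 other activating proteases and their inhibitors 6 were tested and none passed.

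**Figure D3:**
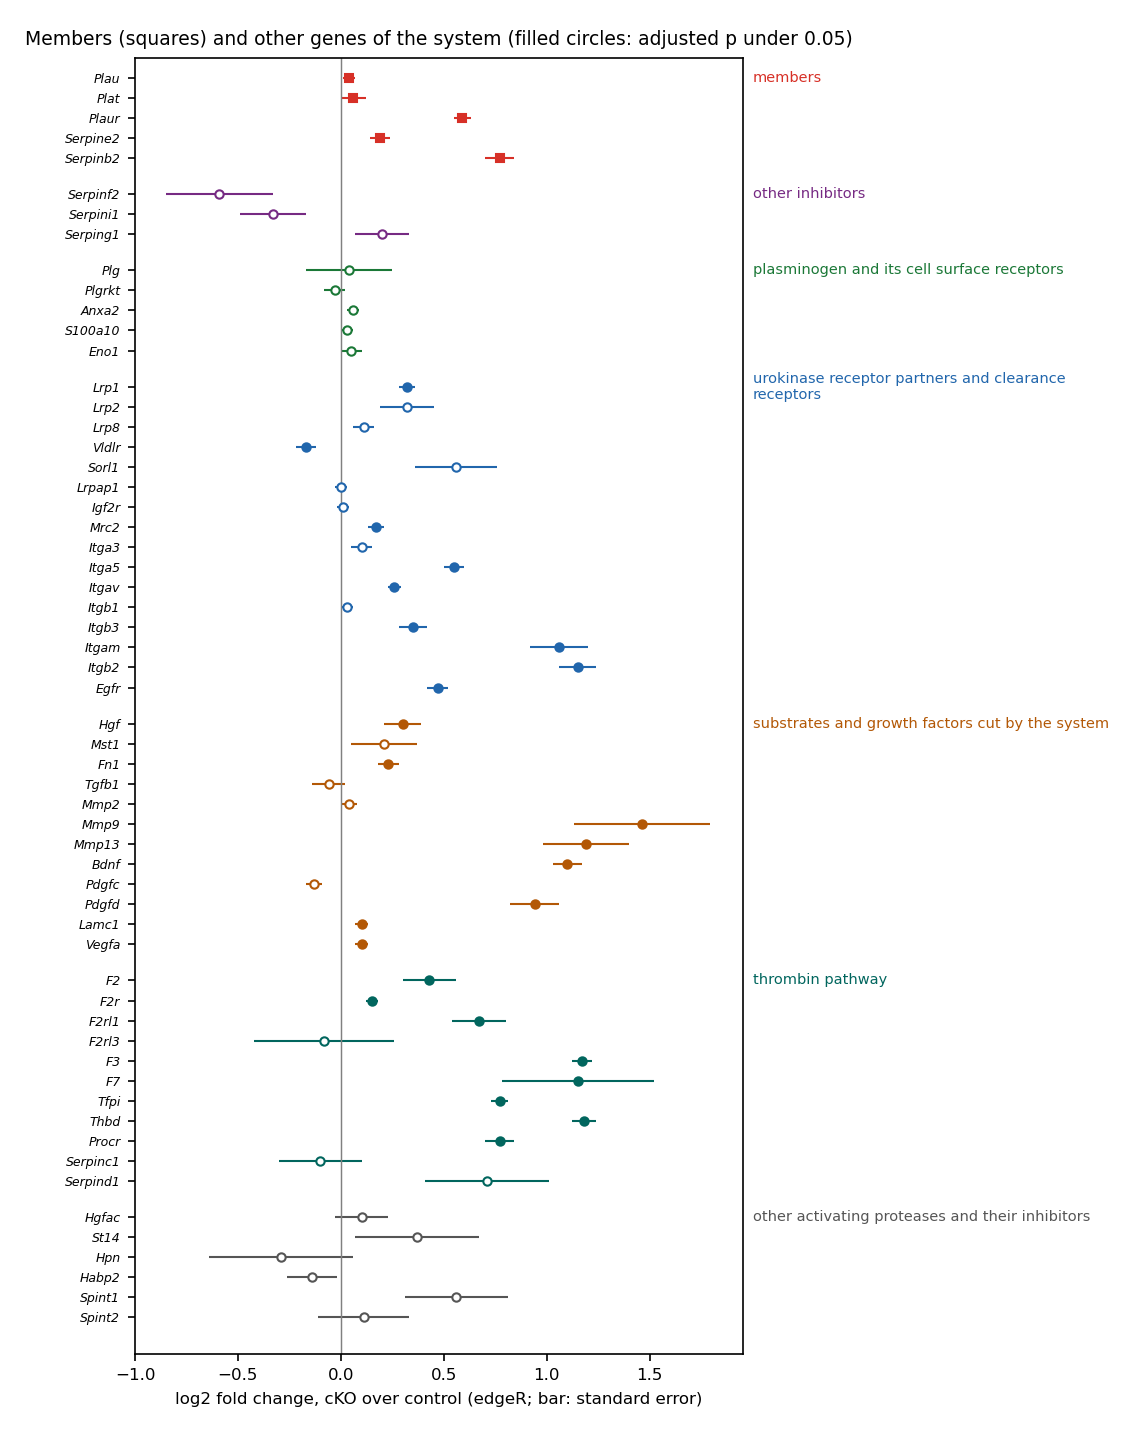
Log2 fold change of cKO over control (horizontal axis; bars are standard errors) for the 5 genes (squares) and the 53 tested genes of the 6 role lists (circles, filled where the edgeR adjusted p is under 0.05). Vldlr is the filled circle to the left of 0, and the other 24 filled circles lie to the right.

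Beside Serpine2 and Serpinb2, 58 protein-coding genes with a serpin symbol were examined, and 20 of them were tested. A higher level was found for 1, Serpinh1, and lower levels for 2, Serpinb1a and Serpina12, with a median log2 fold change of -0.12. Of all tested genes, 9.38% were higher and 6.46% lower, so these counts are not read as a change of the family. Serpinh1, a collagen chaperone with no protease inhibitor activity, rose from 1046 ± 19.4 to 1221 ± 16.2 CPM (0.22, edgeR adjusted p = 7.61e-05). Serpinb1a, an inhibitor of neutrophil proteases, fell from 21.5 ± 0.271 to 15.8 ± 1.56 CPM (log2 fold change -0.45, edgeR adjusted p = 7.83e-05). Serpina12, vaspin, had a log2 fold change of -0.72 at 0.821 and 0.5 CPM (edgeR adjusted p = 0.0355), and the call was lost under 5 alternatives, among them without control replicate 2, control replicate 3 or cKO replicate 3. Another 19 had no counts in any sample.

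The genes next to each of the 5 on the chromosome were examined for a change of the same kind. Serpinb2 lies in a cluster of related serpins, and its nearest tested neighbours were Serpinb7, 58.7 kb away with a log2 fold change of -0.61 (SE 0.31, edgeR adjusted p = 0.219), and Serpinb8, 54.5 kb away with -0.17 (SE 0.07, edgeR adjusted p = 0.111). Both estimates had the opposite sign to that of Serpinb2, and neither passed the test. In the same cluster, Serpinb5, Serpinb13, Serpinb3a, Serpinb3b, Serpinb3c, Serpinb3d and Serpinb11 had no counts. Cadm4, a cell adhesion gene 6.05 kb from Plaur, rose from 8.05 ± 0.533 to 10.2 ± 0.332 CPM (log2 fold change 0.35, edgeR adjusted p = 0.00174), while Smg9 on the other side had a log2 fold change of -0.04. Ikbkb, beside Plat, rose with a log2 fold change of 0.13 (edgeR adjusted p = 0.0215). The remaining neighbours, Camk2g and Vcl of Plau, Ap3m2 of Plat, and Mrpl44 and Cul3 of Serpine2, had log2 fold changes from -0.09 to 0.04 and did not pass the test.

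Profiles over the 6 samples were also compared with those of 10285 genes of at least 5 CPM, by the root mean square difference of centred log2 CPM. The most alike were Rfc2, Bud31 and Hjurp for Plau (differences of 0.0089 to 0.011), and Kirrel, Plppr2 and Notch2 for Plat (0.017 to 0.025). Plaur was most like 4833420G17Rik, Hmga1 and Col4a2 (0.014 to 0.019). Serpine2 was most like Asap1, Plcd1 and Cyp4f16 (0.016 to 0.022). Serpinb2 had the least close matches, Fbn1, Tnc and Fez1 (0.037 to 0.041), which share its high value in cKO replicate 2. The first 2 of these encode fibrillin-1 and tenascin-C of the matrix. The 6 points fall in 2 groups and come from the same libraries for every gene.

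Many markers of some other cell types were also higher in cKO samples, while 9.38% of all tested genes were higher and 6.46% lower. The study reports Cdh5, Pdgfra and other such genes as upregulated in cKO satellite cells, and positive VE-Cadherin staining of these cells. It proposes that genes of alternative lineages are expressed in them. Whether the counts came from satellite cells or from other cells was not tested. In bulk samples, more cells of a type and more RNA per cell cannot be told apart. Of 18 macrophage markers 16 were higher in cKO samples, none was lower (the call of Aif1 was lost under 7 alternatives), and their summed level was 149 to 154 CPM in control and 311 to 360 CPM in cKO samples. Ptprc, which encodes the CD45 used to gate cells out of the sort, rose from 1.44 ± 0.139 CPM in control to between 2.61 and 2.98 CPM in the 3 cKO samples, Csf1r from 5.24 ± 0.36 to 9.87 ± 0.886 CPM and Adgre1 from 2.22 ± 0.213 to 4.78 ± 0.311 CPM (SD, n = 3 each). Urokinase, its receptor and Serpinb2 are known from macrophages as well, and the part of these cells in the differences of Plaur, Serpinb2 and Serpine2 was not tested. Their part in those of Itgam, Itgb2 and Mmp9 was not tested either.

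Fibroblast markers were higher for 8 of the 11 tested (12 listed), with a summed level of 1136 to 1214 CPM in control and 1564 to 1724 CPM in cKO samples. Most of this sum was collagen: Col1a2, Col3a1 and Col1a1 were at 591, 396 and 121 CPM in control samples. Ly6a, which encodes the SCA1 used to gate cells out of the sort, was not called (log2 fold change 0.24, edgeR adjusted p = 0.115). Pdgfra rose from 23.1 ± 1.31 to 51.0 ± 3.91 CPM and Dcn from 0.961 ± 0.187 to 2.06 ± 0.192 CPM (SD, n = 3 each). The part of such cells in the differences of Plaur, Serpinb2, Serpine2 and the growth factor genes was not tested. Endothelial markers were low in both groups, at 23.6 to 25.5 CPM in control and 33.7 to 40.1 CPM in cKO samples for the sum of 12, and 5 of them were higher. Flt1 and Kdr, the receptors of VEGF, had log2 fold changes of 1.12 and 0.78 and passed under every alternative. Those of Pecam1 and Cdh5 were 0.34 and 0.47. The call of Pecam1, whose groups overlapped in CPM, was lost under 7 alternatives, among them DESeq2, the replicate block and leaving out control replicate 2 or 3 or cKO replicate 2 or 3. That of Cdh5 was lost without any 1 control sample or without cKO replicate 2, with a range from 0.22 to 0.58. That of Esam, a further marker, was lost under 6. Of 8 tested smooth muscle and pericyte markers (9 listed), 6 were higher and 2 lower. The calls of Acta2 and Cspg4 were each lost under 6 alternatives and that of Abcc9 without control replicate 3. Their sums were 3294 to 3352 CPM in control and 3554 to 3649 CPM in cKO samples. Most of each sum was Acta2, with means of 2954 and 3154 CPM. The part of smooth muscle cells and pericytes in these differences was not tested. Of 5 glial markers 4 were tested and none passed, with sums of 11.1 to 11.7 CPM in control and 12.4 to 15.5 CPM in cKO samples. None of 10 neutrophil markers and 1 of 9 lymphocyte markers had enough counts to be tested, their sums were at most 0.643 and 0.726 CPM, and Elane, Ltf, S100a9, Ms4a1 and Ncr1 were at 0 in all samples.

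**Figure D4:**
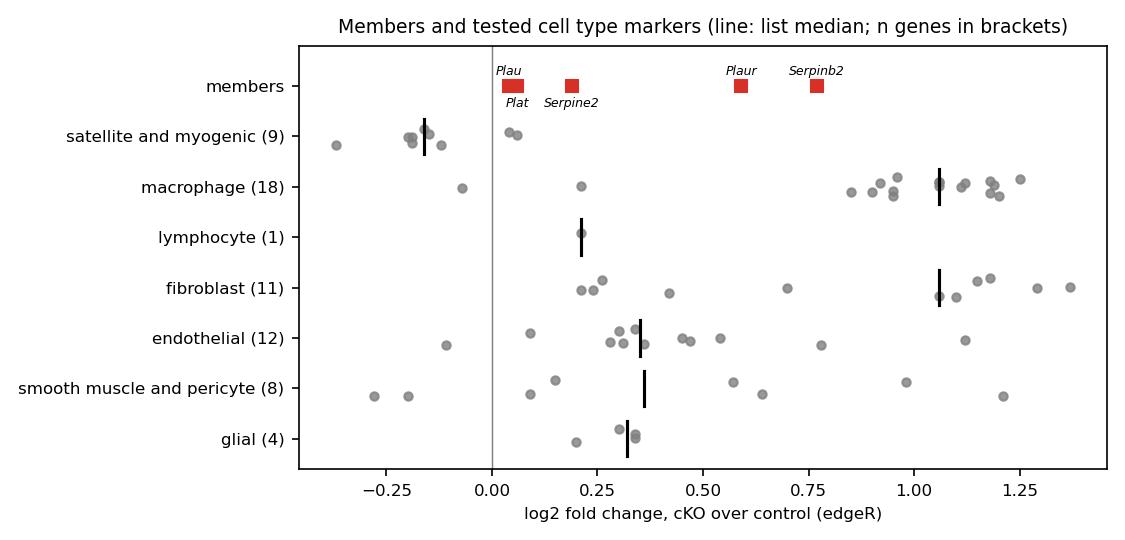
Log2 fold change of cKO over control (horizontal axis) for the 5 genes (red squares, named) and for the tested markers of each cell type (grey circles, the number tested in brackets, black line at the list median). Macrophage and fibroblast markers have medians of 1.06, above Plaur and Serpinb2, and satellite and myogenic markers a median of -0.16.

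The differences of the 5 genes moved with the scale, as shown by the plot of settings. With total counts in place of TMM, the log2 fold changes were 0.06 for Plau, 0.09 for Plat, 0.61 for Plaur, 0.22 for Serpine2 and 0.79 for Serpinb2. In TPM they were larger for all 5, at 0.13, 0.16, 0.68, 0.28 and 0.86 in the same order, and short genes held a different share of the TPM in the groups, as given with the levels. The order Serpinb2, Plaur, Serpine2 was the same under all 13 settings and with TPM.

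**Figure D5:**
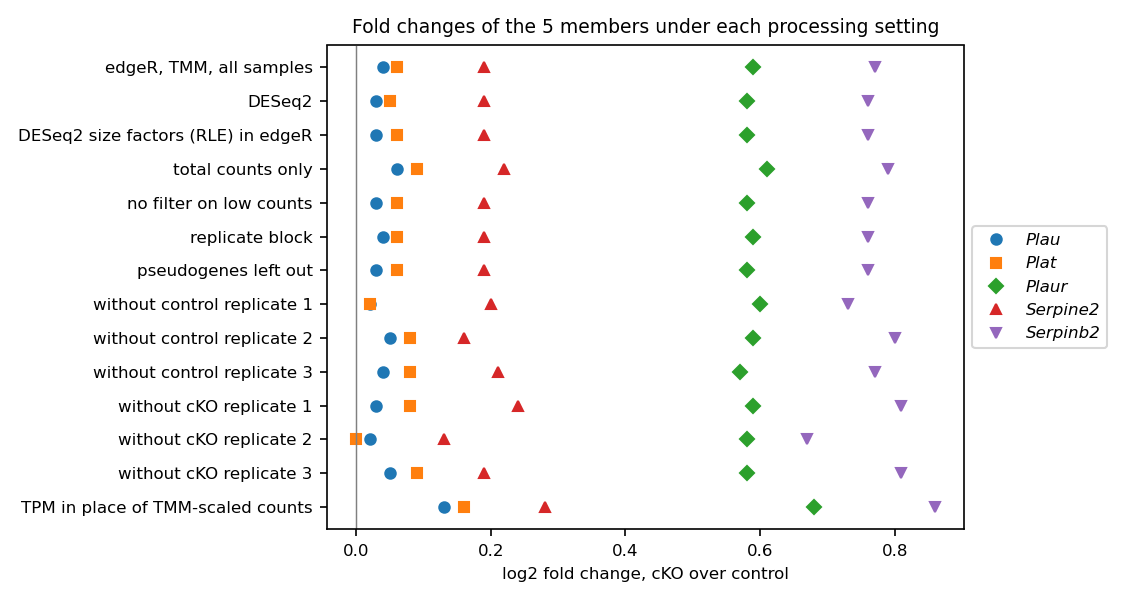
Log2 fold change of cKO over control (horizontal axis) for the 5 genes under each processing setting (vertical axis; the top line is the result as reported). Plaur and Serpinb2 stay above 0.5 throughout, and Plau and Plat stay between 0 and 0.16.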

How the data were processed

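RNA-seq libraries of 3 control and 3 cKO samples (stranded, ribosomal RNA removed, single-end reads of 75 bp) were compared. Per the submitters' processing notes and the study's methods, the authors used Bowtie2 2.3.4.2 on mm10, an aligner without splicing, and deposited raw counts per gene made with featureCounts 1.6.3, whose strand setting is not given in the sources used here. Pseudogenes held 12.0% to 12.3% of counts. The deposited normalized values and the authors' DESeq2 2.11.40.6 comparison (fold changes and p-values) were not used. All 55536 gene identifiers matched GENCODE M21.

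Genes were filtered (filterByExpr), scaled by TMM and tested with edgeR 4.0.16 in R 4.3.3, with genotype as the only term and Benjamini-Hochberg adjustment over 22404 genes. The depth of 47944477 to 63323577 counts limits genes of few counts. TPM used the union of exons. No 2 libraries agreed within sampling noise.

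The genes and lists were chosen with earlier results of these data known. Named from each pathway list and the serpin family were up to 6 genes with the largest absolute changes among those past the threshold with 10 or more counts in each sample of the group with the higher level, plus Plg and Lrp1, the neighbours of each gene, the 3 genes most alike in profile, and the markers Ptprc, Csf1r, Adgre1, Pdgfra, Dcn, Pecam1, Cdh5, Pax7 and Myod1. Vldlr, the further inhibitors, genes at 0, Flt1, Kdr and the markers whose calls were lost were named after their values were seen. So were Lamc1, Vegfa, F2, Mrc2, Col1a1, Col1a2, Col3a1 and Ly6a. Alternatives were DESeq2 1.42.0, other scaling and filters, a replicate block and leaving out each sample. Pathway genes were grouped by role. Some genes of the system and of the serpin family are not reported here and are in none of the list counts.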

Additional observations from a re-analysis of the deposited data

How the results depend on the processing

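None of the 5 genes changed direction under any alternative run, and the log2 fold change of Plat was 0.00 without cKO replicate 2. Leaving out each sample in turn gave log2 fold changes of 0.02 to 0.05 for Plau, 0.00 to 0.09 for Plat, 0.57 to 0.60 for Plaur, 0.13 to 0.24 for Serpine2 and 0.67 to 0.81 for Serpinb2, with 2 to 3 genes past the threshold. In TPM, an alternative chosen after seeing the data and not used for the main differences, the log2 changes were 0.13 for Plau, 0.16 for Plat, 0.68 for Plaur and 0.28 for Serpine2, while the share of TPM in short genes differed between the groups. With the longest transcript the control means were 126 TPM for Plau, 37.4 for Plaur, 20.3 for Serpine2, 9.43 for Serpinb2 and 4.89 for Plat. The pathway genes called higher were 18 to 23 and those called lower 0 to 2 when a sample was left out. Those called lower were 0 without control replicate 1, control replicate 2 or cKO replicate 3, and 2 without cKO replicate 2, with DESeq2 size factors, with no filter or with pseudogenes left out. Serpin family genes called higher were 3 with no filter and 1 to 2 without a sample (2 without control replicate 1), and those called lower were 1 with DESeq2 and 1 to 2 without a sample (1 without control replicate 2, control replicate 3 or cKO replicate 3). The cause was not tested. With total counts only, 70.0% of all calls were higher in cKO samples, against 59.2% with TMM, and the median log2 change of all genes was 0.023.

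Same-numbered samples did not deviate together (r of -0.0129, -0.00451 and -0.0145), and neither did samples of unlike number (r of -0.00735 to 0.0203). Whether samples were handled in pairs cannot be told from these values. With a replicate block, 2 pathway genes and 1 serpin family gene were called lower, and over all genes 1901 were called higher and 1251 lower, against 2101 and 1448 without the block.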
